A study of Mus musculus with 36 samples.

Results

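The Sox genes listed for prostate epithelium are 9 transcription factor genes, Sox2, Sox4, Sox6, Sox7, Sox9, Sox12, Sox13, Sox15 and Sox21. They were taken by name from the 45232 genes of the deposited tables and followed across 12 groups of libraries. All 9 were among the 18176 genes that passed the low-count filter, Sox7 with the fewest counts. RNA sequencing of polyadenylated RNA was done on primary mouse prostate organoids, which are small three-dimensional cultures of prostate epithelial cells. FOXA1 is a pioneer transcription factor of the forkhead family that opens chromatin for other regulators in prostate epithelium.

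The groups are organoids with FOXA1 R219S, with FOXA1 FE255del, with wild-type FOXA1 (WT) and with the empty construct (EV, which the labels call empty vehicle), each collected on days 0, 1 and 11 with 3 libraries per group and 36 in all. Every group, EV included, carried a doxycycline-inducible pCW construct. The induced FOXA1 is joined through a 2A peptide to the red fluorescent protein DsRED, and the doxycycline concentration is given as 500 ng/mL. That the day 0 cultures had no doxycycline is stated only in names within the deposited data. DsRED-positive cells were sorted and plated 3 times for each construct, so the p-values measure the spread between cultures of one sorted population, and the species of the FOXA1 cDNA is not given in the sources used here.

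Sox proteins share a DNA-binding HMG box, which binds the minor groove and bends DNA, and they usually act together with a partner factor. They are sorted into groups by the similarity of that box: SoxB1 members such as Sox2 mostly activate and SoxB2 members such as Sox21 mostly repress, SoxC members (Sox4, Sox12) act in progenitor cells, SoxD members (Sox5, Sox6, Sox13) lack an activation domain of their own, and Sox9, Sox7 and Sox15 stand for groups E, F and G. In the prostate, Sox9 is needed for budding of the embryonic gland and Sox2 is known from basal cells.

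Total counts per library ran from 61476938 to 102385337, mitochondrial genes took 1.32% to 4.37% of them, and libraries of 1 group correlated with r of at least 0.992. Levels below are read counts relative to library size after TMM scaling (CPM). Foxa1 averaged 309 ± 5.11 CPM in R219S, 320.2 ± 27.1 CPM in FE255del, 414 ± 4.69 CPM in WT and 227 ± 4.99 CPM in EV at day 1 (SD, n = 3 each), and it passed the test against EV at days 1 and 11 in all 3 FOXA1 constructs and at day 0 in none. At day 0 the WT libraries (252.9 to 258.9 CPM) nonetheless all lay above those of EV (227.2 to 237.1 CPM). The adjusted p there was 0.090 by edgeR's quasi-likelihood test. The basal keratin genes and Hoxb13, a marker of prostate identity, were expressed (Hoxb13 59.6 to 88.8 CPM over the group means), whereas Pbsn, the probasin gene of mature luminal secretory cells, had no count in any library.

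The 300 bases around the RefSeq start site (GRCm38.p6, 250 before and 50 after it) are printed for 4 of the 7 genes with a window: Sox13 and Sox15, as examples of genes lower under every FOXA1 construct at day 1, Sox4, which was higher under each, and Sox12, whose window holds the only forkhead word found. Letters are lower case and capitals mark a match to a forkhead word (TGTTTAC or TATTTAC, either strand) or a SOX word (AACAAT or AACAAAG, either strand, which share their first bases). The windows are chr1:133424163-133424462 on the minus strand for Sox13, chr11:69654787-69655086 on the plus strand for Sox15, chr13:28953650-28953949 on the minus strand for Sox4 and chr2:152397997-152398296 on the minus strand for Sox12.

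Sox13: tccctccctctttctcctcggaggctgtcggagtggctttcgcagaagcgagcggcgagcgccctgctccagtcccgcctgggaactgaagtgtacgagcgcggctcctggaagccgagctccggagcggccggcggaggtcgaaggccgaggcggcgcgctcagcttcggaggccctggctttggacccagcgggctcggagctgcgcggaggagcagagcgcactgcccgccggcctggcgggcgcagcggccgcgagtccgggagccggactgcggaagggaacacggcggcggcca
Sox15: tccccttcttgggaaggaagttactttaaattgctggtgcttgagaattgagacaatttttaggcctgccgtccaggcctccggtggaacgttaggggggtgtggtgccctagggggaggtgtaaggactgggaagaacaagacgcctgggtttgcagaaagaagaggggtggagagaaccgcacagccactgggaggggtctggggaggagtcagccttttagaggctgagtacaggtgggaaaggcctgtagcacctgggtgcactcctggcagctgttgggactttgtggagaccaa
Sox4: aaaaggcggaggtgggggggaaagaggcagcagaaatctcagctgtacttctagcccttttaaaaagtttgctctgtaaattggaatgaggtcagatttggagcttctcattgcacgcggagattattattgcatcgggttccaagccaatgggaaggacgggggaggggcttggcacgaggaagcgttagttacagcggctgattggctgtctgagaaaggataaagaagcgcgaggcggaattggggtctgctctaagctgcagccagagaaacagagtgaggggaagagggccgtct
Sox12: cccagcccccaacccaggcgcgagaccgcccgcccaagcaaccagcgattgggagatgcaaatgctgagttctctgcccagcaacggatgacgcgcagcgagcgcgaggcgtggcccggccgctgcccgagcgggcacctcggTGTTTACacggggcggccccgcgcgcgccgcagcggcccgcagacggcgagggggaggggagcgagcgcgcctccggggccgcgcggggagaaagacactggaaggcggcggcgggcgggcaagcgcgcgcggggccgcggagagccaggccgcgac

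RefSeq windows were at hand for 7 of the 9 genes, 12 windows in all, several of them alternative starts of Sox6. A forkhead word was in 1 of the 12 windows, the Sox12 window at position -107 from the start site, beside 6.54% of 32851 windows of the same length from all genes. A SOX word was in 4 of the 12, all of them Sox6 windows, beside 15.7% of all windows. Of the printed sequences, those of Sox13, Sox15 and Sox4 hold neither word in this stretch. The RefSeq starts differ from those of the GENCODE M21 annotation used for the gene coordinates below. The Sox15 window ends at 69655086, before the gene start at 69655314 in that annotation. Likewise the Sox2 window, not printed, ends at 34650044, before the gene start at 34650405. These 2 windows therefore do not overlap the genes as placed below.

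At day 1 the Sox genes split into those that were lower with every FOXA1 construct, those that were higher and those whose direction depended on the construct. Sox13, Sox9, Sox7 and Sox15 were lower than in EV with R219S, FE255del and WT alike, and Sox4 was higher with all 3. Sox2 was lower with R219S and passed with neither other construct, Sox6 was higher with R219S and lower with FE255del and WT, Sox21 was higher with R219S and WT and lower with FE255del, and Sox12 was higher with FE255del and WT. With edgeR's quasi-likelihood test and Benjamini-Hochberg adjustment over all genes, 8 of 9 passed in R219S (3 higher, 5 lower), against 48.5% of all genes tested (23.2% higher, 25.3% lower), 8 passed in FE255del (2 higher, 6 lower), against 53.2% (25.5% higher, 27.7% lower), and 8 in WT (3 higher, 5 lower), against 60.5% (29.6% higher, 30.9% lower). Their median log2 fold changes were -0.64, -0.43 and -0.61 in R219S, FE255del and WT, beside -0.04, -0.03 and -0.01 over all genes. These 3 comparisons use the same EV libraries, and the share of all genes called in the same direction in all 3 was not counted. The shares of all genes include many with low counts. With a stricter low-count filter, which Sox7 did not pass, 11799 genes were tested. Of those, 63% passed at day 1 in R219S, 65.9% in FE255del and 73.4% in WT. In every comparison that share was higher than the one given here. The calls of the 9 genes were also read under other settings. These were RLE or total-count scaling of the libraries, no or a stricter filter on low counts, and a fit of only the compared groups. DESeq2, the replicate number as a block, and 1 library left out were the rest. Where a call of the 9 did not hold, that setting is named and the highest adjusted p over all settings is given after "up to". Calls of any other gene were read in the main fit only, so how they hold under other settings was not tested.

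**Figure D1:**
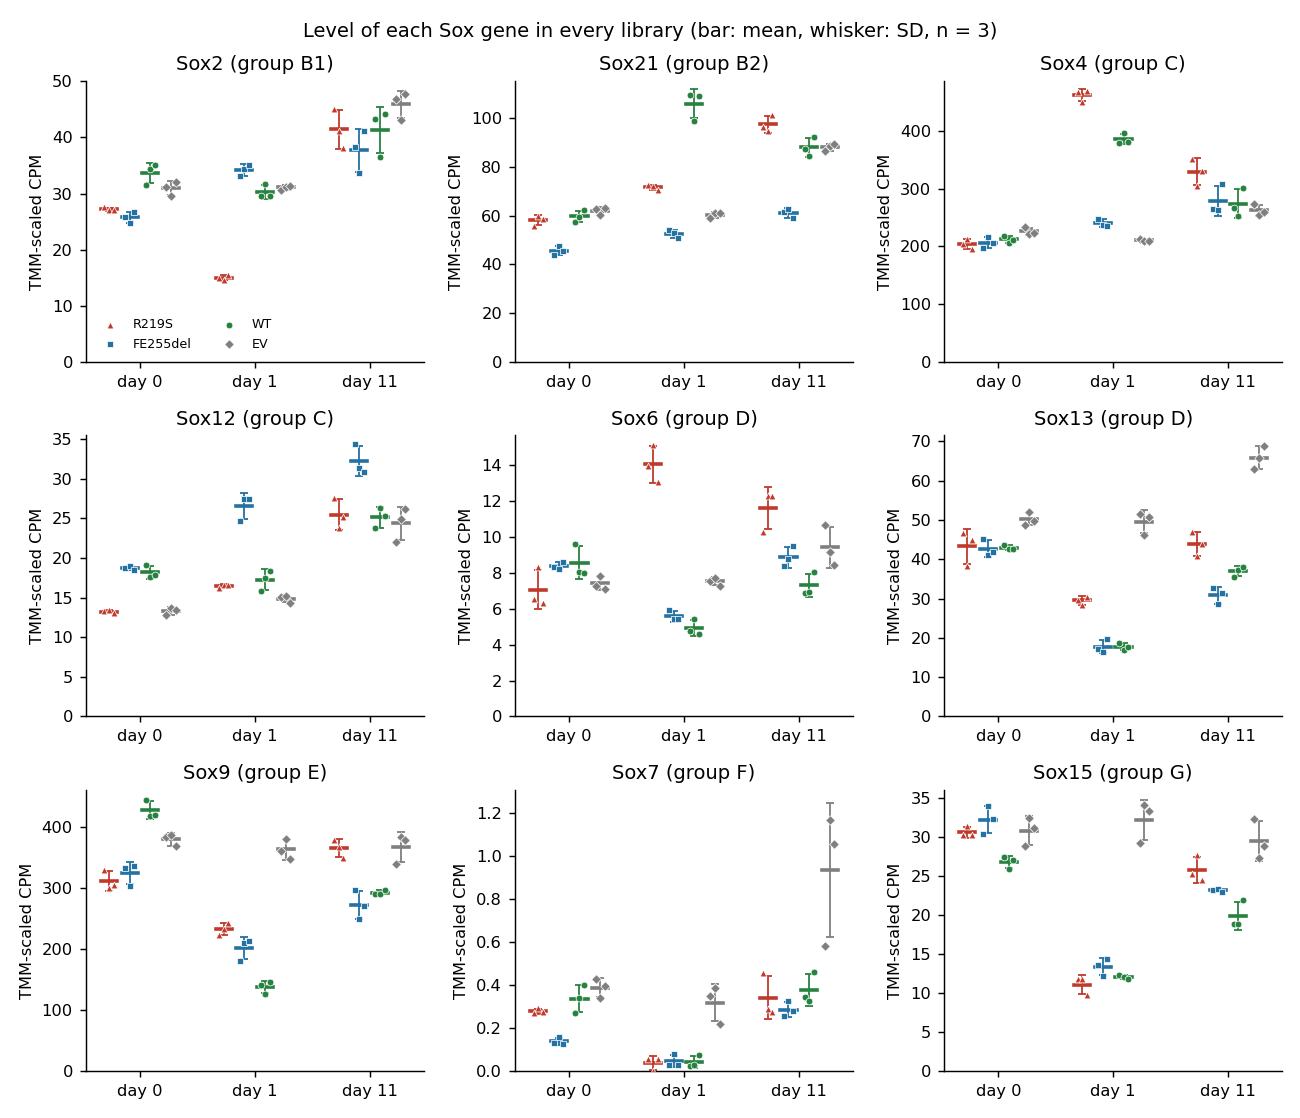
Level of each Sox gene in TMM-scaled CPM (vertical axes, linear from 0) at days 0, 1 and 11, with 1 marker per library, a bar at the mean and a whisker for the SD (n = 3), in the order R219S, FE255del, WT and EV within a day. The day 1 libraries of Sox9, Sox13, Sox7 and Sox15 lie below those of EV for every FOXA1 construct, and those of Sox4 lie above.

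**Figure D2:**
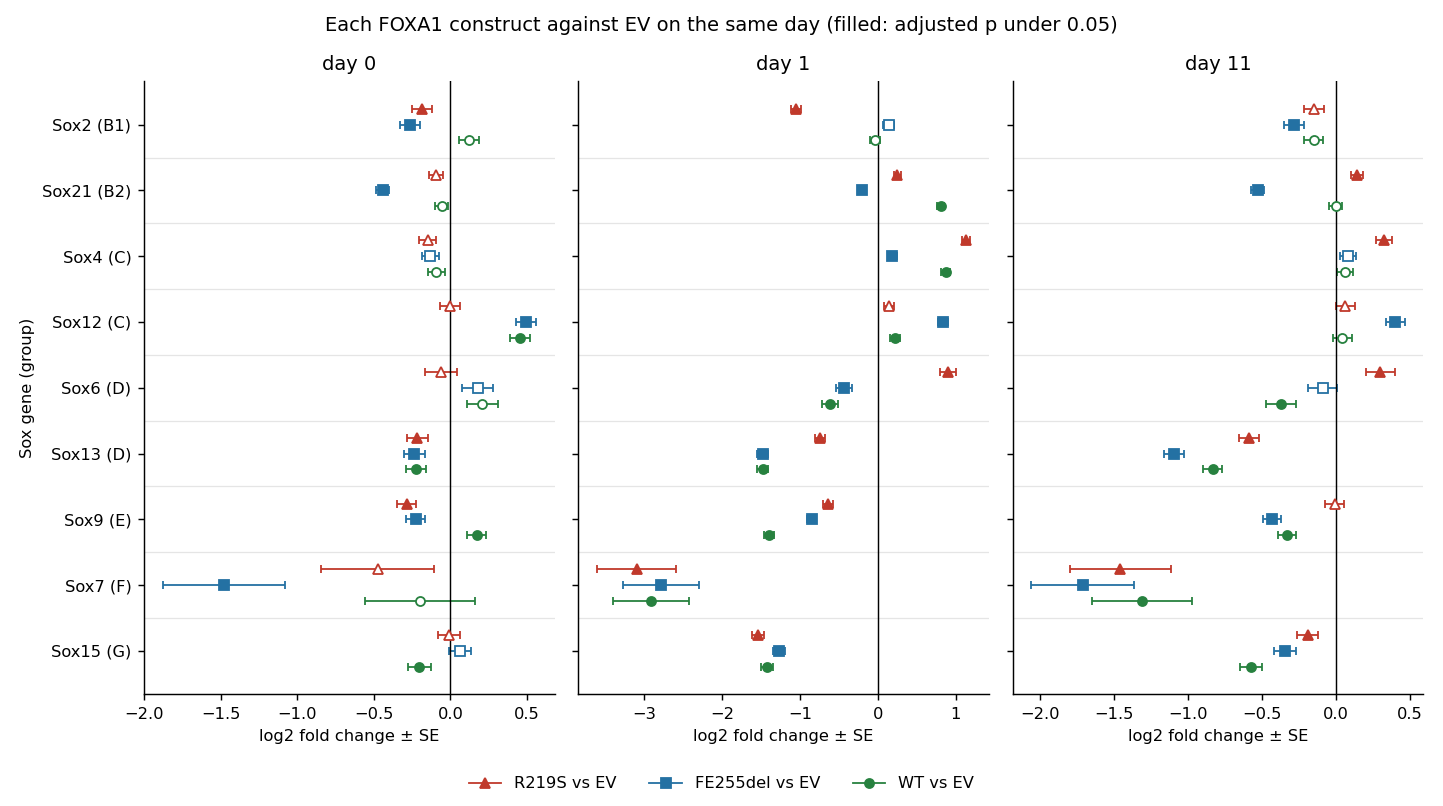
log2 fold change against EV of the same day with its standard error (horizontal axes) for each Sox gene at days 0, 1 and 11, where filled markers had an adjusted p under 0.05. At day 1 the markers of Sox6 and Sox21 stand on both sides of 0, and Sox7 has the widest error.

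Per length, the Sox genes covered a wide range. CPM divided by the length of the exons in kb (CPM per kb) averaged 91.7 ± 2.42 for Sox9 in EV at day 0, then 47.1 ± 1.33 for Sox4, 35.8 ± 2.11 for Sox15, 16.3 ± 0.417 for Sox21, 15.1 ± 0.619 for Sox2, 11.6 ± 0.365 for Sox13, 2.98 ± 0.109 for Sox12, 0.499 ± 0.0263 for Sox6 and 0.117 ± 0.0137 for Sox7 (SD, n = 3). Sox5, the only other Sox gene that passed the filter, stood at 0.103 ± 0.0227 CPM per kb, within the spread of Sox7. The remaining 10 Sox genes of the family list had at most 10 counts in any library. Sox4 and Sox9 exchanged places at day 1: Sox4 stood at 96.3 ± 2.16 CPM per kb and Sox9 at 56.3 ± 2.52 in R219S, at 80.3 ± 1.84 and 33.2 ± 2.39 in WT, and at 44.0 ± 0.258 and 87.7 ± 3.97 in EV. In FE255del they stood at 50.1 ± 1.36 and 48.6 ± 4.30 CPM per kb, which is within their spread. Of the 4795 exon bases of Sox4, 2616 are shared with a gene on the opposite strand, and the strand setting of the counting is not given. Reads of that stretch may have been left out, so the per-length level of Sox4 and its rank beside Sox9 are uncertain.

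**Figure D3:**
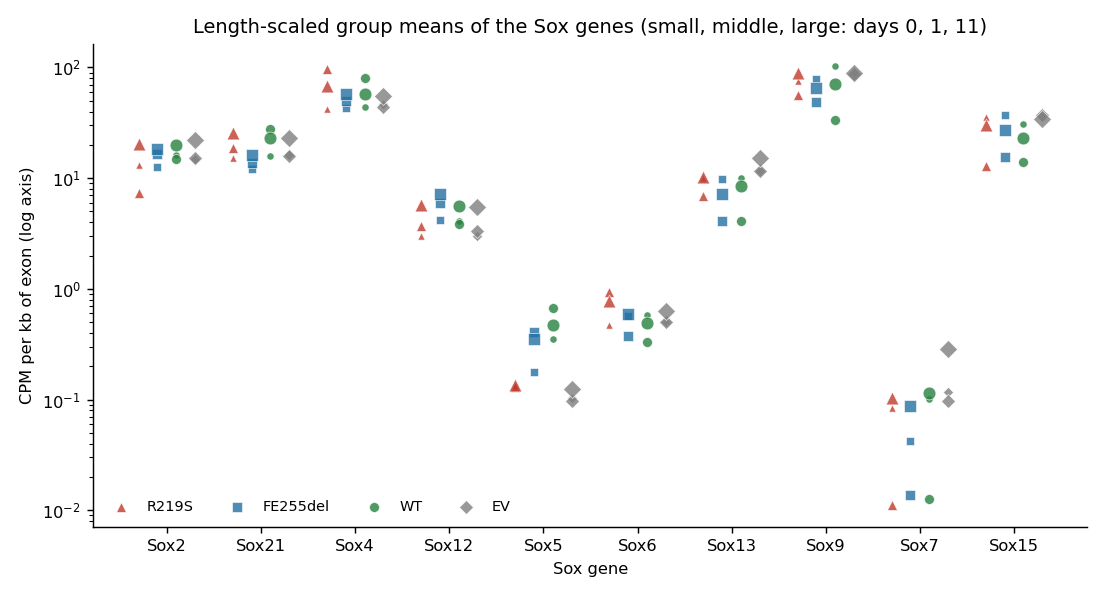
Group means of each Sox gene in CPM per kb of exon (vertical log axis), with the markers R219S, FE255del, WT and EV from left to right within a gene and small, middle and large markers for days 0, 1 and 11. Sox9 and Sox4 lie at the top, between 33.2 and 103 and between 42.6 and 96.3 CPM per kb, and Sox7, Sox5 and Sox6 lie below 1.

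Sox2 (group B1; chr3:34650405-34652461, plus strand) is the factor that keeps stem cells pluripotent together with Oct4 and is used as a basal and progenitor marker in several epithelia. At day 1 its level was 15.0, 14.6 and 15.5 CPM in the R219S libraries, against 33.1, 34.4 and 35.2 CPM in FE255del, 29.6, 31.8 and 29.6 CPM in WT and 30.7, 31.2 and 31.4 CPM in EV. The 3 R219S libraries lay below every other library of that day. R219S was 2.07-fold lower than EV (log2 fold change -1.05 ± 0.07 SE, adjusted p = 4.3e-15 by edgeR) and 2.28-fold lower than FE255del (adjusted p = 9.2e-17). FE255del differed from EV by a log2 fold change of 0.14 ± 0.07 (adjusted p = 0.08), which passed with RLE and total-count scaling, with no or a stricter filter, with only the compared groups and with DESeq2 (adjusted p down to 0.001), and its libraries all lay above those of EV. FE255del was 1.13-fold higher than WT (adjusted p = 0.033), a call lost with total-count scaling and without 1 of 4 single libraries (up to 0.105).

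By day 11 the level of Sox2 was 45.0, 41.2 and 38.1 CPM in R219S, 38.3, 33.6 and 41.2 CPM in FE255del, 43.2, 36.6 and 44.2 CPM in WT and 46.9, 43.1 and 47.7 CPM in EV. FE255del was lower than EV (log2 fold change -0.28 ± 0.07, adjusted p = 0.00056) and the other constructs did not pass (adjusted p = 0.086 for R219S and 0.064 for WT). Both passed under some other setting (down to 0.013 for R219S and 0.024 for WT). The groups of R219S and WT overlapped EV. At day 0, FE255del averaged 25.8 ± 0.999 CPM and R219S 27.2 ± 0.265 CPM, against 33.6 ± 1.84 CPM in WT and 31.0 ± 1.27 CPM in EV (SD, n = 3 each). The FE255del value was lower than EV (adjusted p = 0.004), while the R219S call (adjusted p = 0.045) was lost on leaving out any 1 of its 6 libraries (up to 0.146). Sox2 lies inside the longer gene Sox2ot on the same strand without shared exon bases, and Sox2ot stood at group means of 0.353 to 1.24 CPM, the lowest in R219S at day 1.

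Sox21 (group B2; chr14:118233232-118237030, minus strand) encodes a repressor that counters SoxB1 factors and is known from hair cuticle and other epithelia. On day 1 Sox21 stood at 72.4, 72.1 and 70.5 CPM in R219S, 54.1, 52.7 and 50.9 CPM in FE255del, 109, 98.9 and 109 CPM in WT and 58.8, 61.1 and 61.2 CPM in EV. No 2 constructs overlapped, and the order was WT, R219S, EV and FE255del from high to low. WT was 1.75-fold above EV (log2 fold change 0.81 ± 0.04, adjusted p = 9.2e-18), R219S 1.19-fold above it (adjusted p = 1e-05) and FE255del 1.15-fold below it (log2 fold change -0.20 ± 0.04, adjusted p = 0.00019). The FE255del call was lost with total-count scaling (log2 fold change -0.10, adjusted p = 0.059).

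In FE255del, Sox21 was also the lowest of the constructs on the other days, with 43.8, 47.6 and 45.6 CPM at day 0 and 61.5, 62.7 and 59.0 CPM at day 11. EV had 62.8, 60.2 and 63.1 CPM at day 0 and 86.5, 88.7 and 89.1 CPM at day 11. FE255del was 1.36-fold below EV at day 0 (adjusted p = 3e-09) and 1.44-fold below it at day 11 (adjusted p = 2.4e-12), with no overlap of libraries. At day 11, R219S averaged 97.3 ± 3.60 CPM, WT 88.1 ± 3.87 CPM and EV 88.1 ± 1.43 CPM (SD, n = 3 each). R219S passed against EV (log2 fold change 0.14 ± 0.04, adjusted p = 0.008), which was lost with total-count scaling, with only the compared groups and without R219S replicate 3 (up to 0.097). Exons of Sox21 share 713 bases with Gm4675 on the opposite strand, whose group means were 2.54 to 5.23 CPM, and without a stated strand setting reads of that stretch cannot be assigned to one gene.

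Sox4 (group C; chr13:28948919-28953713, minus strand) promotes survival and progenitor states in many tissues and is often raised in carcinomas. At day 1 it stood at 467, 449.9 and 468 CPM in R219S, 248, 237 and 235 CPM in FE255del, 379, 395 and 381 CPM in WT and 212, 210.1 and 210.1 CPM in EV. Every library with a FOXA1 construct lay above every EV library, and the constructs did not overlap each other. R219S was 2.19-fold higher than EV (log2 fold change 1.13 ± 0.06, adjusted p = 2.8e-18), WT 1.83-fold higher (0.87 ± 0.06, adjusted p = 1.4e-15) and FE255del 1.14-fold higher (0.19 ± 0.06, adjusted p = 0.005). R219S was also 1.92-fold above FE255del (adjusted p = 1.9e-16) and 1.20-fold above WT (adjusted p = 0.00011).

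At day 11, Sox4 had 351, 305 and 331 CPM in R219S, 264, 262 and 308 CPM in FE255del, 267, 253 and 301 CPM in WT and 273, 255 and 260.1 CPM in EV. R219S remained above EV without overlap (log2 fold change 0.32 ± 0.06, adjusted p = 1.5e-05) and the WT and FE255del libraries overlapped EV (adjusted p = 0.423 and 0.248). R219S was above WT as well (log2 fold change 0.26 ± 0.06, adjusted p = 0.00015). At day 0 the means were 204 ± 8.31 CPM in R219S, 206 ± 9.46 CPM in FE255del, 212 ± 5.83 CPM in WT and 226 ± 6.37 CPM in EV (SD, n = 3 each). None of these passed against EV, although all libraries of each construct lay below EV. R219S passed with RLE and total-count scaling, with no or a stricter filter, with only the compared groups and with DESeq2 (adjusted p = 0.06, down to 0.008). FE255del (adjusted p = 0.093) also passed under some other setting (down to 0.005). Exons of Sox4 share 2616 bases with Gm26735 on the opposite strand, whose group means ran from 1.02 to 5.95 CPM. Without a stated strand setting, reads of that stretch cannot be assigned to one gene.

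Sox12 (group C; chr2:152393611-152398063, minus strand) is a weaker activator than its relatives and overlaps with them in function in mouse development. Day 1 levels of Sox12 were 16.2, 16.6 and 16.6 CPM in R219S, 24.7, 27.5 and 27.4 CPM in FE255del, 15.9, 17.5 and 18.4 CPM in WT and 15.1, 15.2 and 14.3 CPM in EV. FE255del lay above all other libraries of the day. It was 1.78-fold higher than EV (log2 fold change 0.83 ± 0.06, adjusted p = 2.9e-13), while WT was 1.16-fold higher (adjusted p = 0.005) and R219S did not pass (0.15 ± 0.07, adjusted p = 0.065). The R219S value passed with RLE and total-count scaling, a stricter filter, only the compared groups and DESeq2 (adjusted p down to 0.012).

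FE255del also held the highest mean of Sox12 on the other days, 18.7 ± 0.248 CPM at day 0 and 32.2 ± 1.91 CPM at day 11, against 13.3 ± 0.484 CPM and 24.4 ± 2.11 CPM in EV (SD, n = 3 each). It passed against EV at day 0 (log2 fold change 0.49 ± 0.07, adjusted p = 9.4e-07) and at day 11 (0.40 ± 0.06, adjusted p = 2.4e-06). WT was above EV at day 0 as well, at 18.2 ± 0.822 CPM (adjusted p = 1.6e-06), and did not pass at day 11 (25.1 ± 1.31 CPM, adjusted p = 0.636). R219S averaged 13.2 ± 0.208 CPM at day 0 and 25.5 ± 1.91 CPM at day 11, with adjusted p of 0.997 and 0.48 against EV. The printed Sox12 window is the one with a forkhead word.

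Sox6 (group D; chr7:115470872-116038796, minus strand) works with Sox5 and Sox9 in cartilage and represses embryonic globin genes in red cells. Levels of Sox6 at day 1 were 13.96, 15.1 and 13.0 CPM in R219S, 5.93, 5.41 and 5.41 CPM in FE255del, 4.76, 5.44 and 4.59 CPM in WT and 7.56, 7.72 and 7.28 CPM in EV. The R219S libraries lay above EV and those of FE255del and WT below it. R219S was 1.87-fold higher than EV (log2 fold change 0.90 ± 0.10, adjusted p = 2.1e-09), whereas FE255del was 1.35-fold lower (-0.43 ± 0.10, adjusted p = 0.00064) and WT 1.53-fold lower (-0.61 ± 0.10, adjusted p = 4.6e-06). Between constructs, R219S stood 2.85-fold above WT (adjusted p = 7.4e-15) and 2.51-fold above FE255del (adjusted p = 2.1e-13), and FE255del and WT did not differ past the threshold (0.18 ± 0.11, adjusted p = 0.18).

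At day 11, Sox6 averaged 11.6 ± 1.16 CPM in R219S, 8.86 ± 0.574 CPM in FE255del, 7.29 ± 0.650 CPM in WT and 9.42 ± 1.14 CPM in EV (SD, n = 3 each). WT was lower than EV (log2 fold change -0.37 ± 0.10, adjusted p = 0.003) and R219S was higher than WT (0.67 ± 0.10, adjusted p = 7.8e-07). The R219S libraries overlapped those of EV, and their call (0.30 ± 0.10, adjusted p = 0.018) was lost with only the compared groups and without 1 of 4 single libraries (up to 0.114). FE255del was above WT at the edge of the threshold (0.28 ± 0.10, adjusted p = 0.050), a call lost in 9 of the settings tried (up to 0.188). At day 0 the construct means ran from 7.07 CPM in R219S to 8.56 CPM in WT, beside 7.40 CPM in EV, and none passed against EV.

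Sox13 (group D; chr1:133382303-133424377, minus strand) is known for its part in the development of gamma delta T cells and for binding Tcf1. On day 1 Sox13 stood at 29.8, 28.4 and 30.5 CPM in R219S, 17.1, 16.4 and 19.7 CPM in FE255del, 18.6, 17.0 and 17.7 CPM in WT and 51.6, 46.2 and 50.8 CPM in EV. All libraries with a FOXA1 construct lay below EV, and those of R219S lay above the other two. FE255del and WT were both 2.79-fold lower than EV (log2 fold change -1.48 ± 0.07 in each, adjusted p = 3.4e-19 and 2.1e-19), and R219S was 1.68-fold lower (-0.75 ± 0.07, adjusted p = 1.4e-11). R219S passed against WT as well (0.73 ± 0.07, adjusted p = 2.8e-11).

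The lower level of Sox13 was still present at day 11, with 47.0, 40.9 and 43.8 CPM in R219S, 32.7, 28.5 and 31.4 CPM in FE255del, 35.5, 37.4 and 38.1 CPM in WT and 63.0, 65.8 and 68.9 CPM in EV. All 9 libraries with a FOXA1 construct were below EV. FE255del was 2.13-fold lower (log2 fold change -1.09 ± 0.07, adjusted p = 1.5e-15), WT 1.78-fold lower (-0.83 ± 0.07, adjusted p = 1.4e-12) and R219S was lower as well (-0.59 ± 0.07, adjusted p = 6.4e-09). FE255del stood below WT (-0.26 ± 0.07, adjusted p = 0.005), lost without FE255del replicate 2 (adjusted p = 0.054), and R219S above WT (0.25 ± 0.07, adjusted p = 0.002), lost with total-count scaling (adjusted p = 0.085). A smaller difference existed at day 0, where the means were 43.3 ± 4.46 CPM in R219S, 42.7 ± 2.20 CPM in FE255del, 43.0 ± 0.617 CPM in WT and 50.2 ± 1.57 CPM in EV (SD, n = 3 each). All 3 passed against EV (adjusted p = 0.019, 0.01 and 0.011). Each of these day 0 calls was lost without EV replicate 2, the R219S one also without R219S replicate 2, the FE255del one also without FE255del replicate 2 and the WT one also with total-count scaling (up to 0.21, 0.059 and 0.057).

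Sox5, the remaining SoxD gene and not one of the 9, was higher at day 1 in the constructs in which Sox13 was lower. Its level at day 1 was 1.93, 1.69 and 2.00 CPM in R219S, 6.14, 5.76 and 5.58 CPM in FE255del, 8.96, 10.5 and 9.75 CPM in WT and 1.22, 1.41 and 1.58 CPM in EV. WT was above EV on every day (log2 fold changes 1.76, 2.79 and 1.93 at days 0, 1 and 11, adjusted p = 3.2e-11, 8.4e-18 and 3.2e-13), and so was FE255del (0.78, 2.05 and 1.53, adjusted p = 0.0003, 4.9e-14 and 8.7e-11). R219S passed at day 1 (0.42 ± 0.16, adjusted p = 0.026) and not at days 0 and 11 (adjusted p = 0.083 and 0.58).

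Sox9 (group E; chr11:112782224-112787760, plus strand) directs cartilage formation and testis determination and marks progenitors in many epithelia, including prostate buds. Levels of Sox9 at day 1 were 222, 233 and 243 CPM in R219S, 180.4, 210.2 and 212 CPM in FE255del, 141, 126 and 145 CPM in WT and 361, 380.1 and 347 CPM in EV. All libraries with a FOXA1 construct lay below EV, and the WT libraries lay below those of both variants. WT was 2.64-fold lower than EV (log2 fold change -1.40 ± 0.06, adjusted p = 1.3e-19), FE255del 1.81-fold lower (-0.85 ± 0.06, adjusted p = 8.3e-14) and R219S 1.56-fold lower (-0.64 ± 0.06, adjusted p = 1.1e-10). R219S stood 1.69-fold and FE255del 1.46-fold above WT (adjusted p = 1.3e-12 and 8.1e-09), and R219S passed against FE255del (0.21 ± 0.06, adjusted p = 0.004), which was lost with total-count scaling, with only the compared groups and without FE255del replicate 1 (up to 0.072).

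At day 11, Sox9 had 378, 367 and 349 CPM in R219S, 296, 249 and 271 CPM in FE255del, 289, 290.0 and 297 CPM in WT and 338, 384 and 378 CPM in EV. The R219S libraries overlapped EV (log2 fold change -0.01 ± 0.06, adjusted p = 0.95), and those of FE255del and WT lay below it. FE255del passed against EV (-0.43 ± 0.06, adjusted p = 5.9e-07), as did WT (-0.33 ± 0.06, adjusted p = 4.8e-05). The constructs already differed at day 0, with 311 ± 16.1 CPM in R219S, 324 ± 18.2 CPM in FE255del, 427 ± 15.0 CPM in WT and 379 ± 10.02 CPM in EV (SD, n = 3 each). R219S and FE255del were lower than EV there (adjusted p = 0.001 and 0.008), the FE255del call being lost without FE255del replicate 2 (adjusted p = 0.074), and WT was higher than EV (adjusted p = 0.044), lost on leaving out any 1 of the 6 libraries (up to 0.175).

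Sox7 (group F; chr14:63943673-63950732, plus strand) is best known from the endothelium and the primitive endoderm, and it was the least expressed of the 9. At day 1 its raw counts were 4, 0 and 4 in R219S, 2, 6 and 2 in FE255del, 2, 2 and 6 in WT and 24, 26 and 15 in EV. The counts under every FOXA1 construct lay below those of EV. The fitted log2 fold changes were -3.10 ± 0.51 in R219S, -2.78 ± 0.49 in FE255del and -2.92 ± 0.49 in WT (adjusted p = 3.9e-06, 9.5e-06 and 3.4e-06), and they rest on these few counts, of which both reads of a pair seem to be counted. At day 11 the level was 0.340 ± 0.1 CPM in R219S, 0.286 ± 0.0346 CPM in FE255del, 0.377 ± 0.0730 CPM in WT and 0.936 ± 0.310 CPM in EV (SD, n = 3 each), and all 3 constructs were below EV (adjusted p = 0.00097, 0.00012 and 0.002). At day 0, FE255del passed (0.139 ± 0.0163 CPM, against 0.387 ± 0.0450 CPM in EV, adjusted p = 0.007) and R219S and WT did not (adjusted p = 0.401 and 0.782).

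Summed over 8 endothelial genes, the level at day 1 was 1.31 to 1.79 CPM in R219S, 6.73 to 7.67 CPM in FE255del, 5.21 to 5.52 CPM in WT and 1.33 to 1.87 CPM in EV. Of the 8 genes, 3 could be tested at day 1 (Pecam1, Esam and Kdr). By edgeR's test 2 were higher and 1 lower in FE255del against EV, 1 was higher in WT, and none passed in R219S (adjusted p = 0.085 for Pecam1, 0.492 for Esam and 1 for Kdr). Of all genes tested against EV at day 1, 48.5% passed in R219S (23.2% higher, 25.3% lower), 53.2% in FE255del (25.5% higher, 27.7% lower) and 60.5% in WT (29.6% higher, 30.9% lower). The defining genes Cdh5 and Emcn stood at group means of at most 0.01 CPM. Most of the sum was Pecam1, which was higher in FE255del and WT (log2 fold changes 3.501 and 2.92, adjusted p = 4.2e-14 and 2.5e-12). A list of 8 immune genes summed to 1.95 to 2.43 CPM in R219S, 45.4 to 53.1 CPM in FE255del, 56.8 to 74.2 CPM in WT and 4.59 to 4.99 CPM in EV at day 1, mostly Csf1r, while Ptprc, the pan-leukocyte gene, stood at group means of at most 0.183 CPM. The part of such cells in these levels was not tested.

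Sox15 (group G; chr11:69655314-69656727, plus strand) is close in sequence to SoxB1 factors and is known from muscle precursors and the placenta. At day 1 it stood at 11.8, 11.8 and 9.70 CPM in R219S, 13.6, 12.2 and 14.3 CPM in FE255del, 12.3, 12.03 and 11.8 CPM in WT and 29.3, 34.1 and 33.3 CPM in EV. Every library with a FOXA1 construct lay below every EV library. R219S was 2.91-fold lower than EV (log2 fold change -1.54 ± 0.08, adjusted p = 3.2e-18), WT 2.67-fold lower (-1.42 ± 0.08, adjusted p = 1e-17) and FE255del 2.41-fold lower (-1.27 ± 0.08, adjusted p = 2.8e-16). R219S was below FE255del (-0.27 ± 0.08, adjusted p = 0.004), which was lost without R219S replicate 3 (adjusted p = 0.064). Sox15 shares 31 exon bases with Mpdu1 on the opposite strand.

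At day 11, Sox15 had 25.3, 27.7 and 24.5 CPM in R219S, 23.3, 23.4 and 23.0 CPM in FE255del, 18.8, 18.8 and 22.0 CPM in WT and 32.3, 27.3 and 28.9 CPM in EV. WT was 1.49-fold lower than EV (log2 fold change -0.57 ± 0.07, adjusted p = 8e-08) and FE255del 1.27-fold lower (-0.35 ± 0.07, adjusted p = 0.00021), both without overlap. The R219S libraries overlapped EV, and their call (-0.19 ± 0.07, adjusted p = 0.044) was lost with only the compared groups and without 1 of 4 single libraries (up to 0.263). At day 0 the means were 30.6 ± 0.675 CPM in R219S, 32.3 ± 1.77 CPM in FE255del, 26.8 ± 0.794 CPM in WT and 30.9 ± 1.82 CPM in EV (SD, n = 3 each). WT passed against EV (adjusted p = 0.044), which was lost with RLE and total-count scaling, with no filter, with the replicate number as a block (log2 fold change -0.20) and without 1 of 5 single libraries (up to 0.184).

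Against EV, fewer of the 9 genes passed at day 0 than at day 1. Of the 9 genes, 3 passed in R219S against EV (all lower), beside 20.1% of all genes (13.2% higher, 6.92% lower), 6 in FE255del (1 higher, 5 lower), beside 20.8% (11.1% higher, 9.72% lower), and 4 in WT (2 higher, 2 lower), beside 22.7% (9.9% higher, 12.8% lower). The log2 fold changes of the genes that passed lay between -0.44 and 0.49, apart from Sox7 in FE255del (-1.48 ± 0.40). The count in R219S was 1 without EV replicate 2 or R219S replicate 2 and 5 with total-count scaling, the stricter filter or DESeq2. In WT it was 1 without EV replicate 2, and 2 without EV replicate 3 or any 1 WT library or with total-count scaling. At day 11, 6 of 9 passed in R219S against EV (3 higher, 3 lower), beside 32.1% (17.7% higher, 14.4% lower), 7 in FE255del (1 higher, 6 lower), beside 42.2% (22.6% higher, 19.6% lower), and 5 in WT (all lower), beside 40.6% (21% higher, 19.7% lower). The medians over the 9 were -0.01, -0.35 and -0.33 in R219S, FE255del and WT at day 11. In R219S the day 11 count was 3 without R219S replicate 3 or with only the compared groups.

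Set against WT rather than EV, R219S showed 6 of 9 genes past the threshold at day 1 (4 higher, 2 lower), beside 59.6% of all genes (30.5% higher, 29.1% lower), and 6 of 9 at day 11 (all higher), beside 48.9% (24.8% higher, 24.1% lower). The share of all genes whose R219S and WT libraries did not overlap was not counted. The 6 at day 11 were Sox4, Sox6, Sox9, Sox13, Sox15 and Sox21, each with all 3 R219S libraries above all 3 WT libraries, by log2 fold changes of 0.14 to 0.67. The smallest of them, Sox21 (0.14 ± 0.04, adjusted p = 0.005), was lost with total-count scaling (adjusted p = 0.337) and with only the compared groups. FE255del against WT gave 5 of 9 at day 1 (3 higher, 2 lower), beside 41.7% (21.8% higher, 19.9% lower), and 5 of 9 at day 11 (3 higher, 2 lower), beside 17.7% (9.75% higher, 7.92% lower). At day 0, 5 of 9 passed in R219S (1 higher, 4 lower), beside 39.8% (23.8% higher, 16% lower), and 5 in FE255del (1 higher, 4 lower), beside 26.8% (15.7% higher, 11.2% lower). The day 11 count of FE255del against WT was 3 without WT replicate 1 or with only the compared groups and 2 without FE255del replicate 2. The day 0 count of R219S against WT was 3 without WT replicate 1, R219S replicate 1 or R219S replicate 3. Foxa1 itself was lower than in WT at day 1 in R219S (log2 fold change -0.42, adjusted p = 1.6e-07 by edgeR's test) and in FE255del (-0.37, adjusted p = 3.9e-06). At day 0 it was lower in R219S (-0.17, adjusted p = 0.026) and did not pass in FE255del (adjusted p = 0.086). At day 11 neither variant passed (adjusted p = 0.998 in R219S and 0.124 in FE255del). The part of the Foxa1 level in the differences from WT was not tested.

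The variants also differed from one another. At day 1, 8 of 9 genes passed between R219S and FE255del (5 higher and 3 lower in R219S), beside 52.5% of all genes (26.8% higher, 25.7% lower). Sox2, Sox12 and Sox15 were the 3 lower in R219S, and Sox7 did not pass (adjusted p = 0.739). At day 11, 6 of 9 passed (5 higher, 1 lower), beside 49.2% (24.4% higher, 24.7% lower), and at day 0 only Sox21 and Sox12 did, beside 12.2% (7.3% higher, 4.91% lower).

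**Figure D4:**
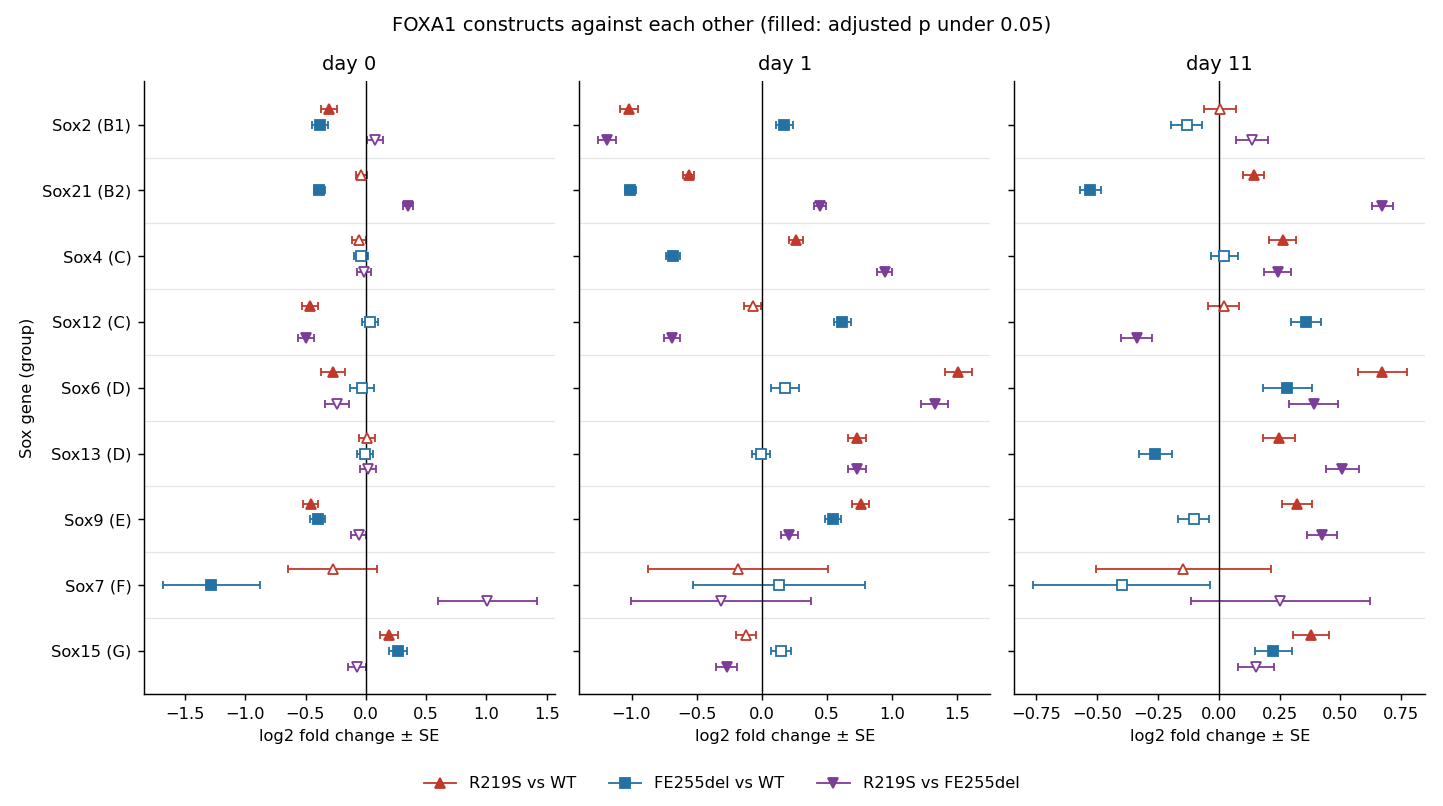
log2 fold change with its standard error (horizontal axes, a scale of its own for each day) between FOXA1 constructs at days 0, 1 and 11, where filled markers had an adjusted p under 0.05. At day 1, Sox6 stands at 1.51 for R219S against WT and Sox2 at -1.02.

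EV cultures, in which Foxa1 averaged 233, 227 and 230 CPM at days 0, 1 and 11, gave the course without induced FOXA1. Between day 1 and day 0, edgeR's test called 0 of the 9 genes and 1.43% of all genes (0.259% higher, 1.17% lower), 1 of the 9 had an unadjusted p under 0.05 (Sox12, higher), and DESeq2 also called 0. At day 11 against day 0, 7 of 9 were higher, beside 47.6% of all genes called (23.1% higher, 24.6% lower), and Sox9 and Sox15 did not pass (adjusted p = 0.569 and 0.503). Sox7 had the largest log2 fold change of the 7 (1.27 ± 0.34, adjusted p = 0.002), followed by Sox12 (0.88 ± 0.07, adjusted p = 5.1e-13) and Sox2 (0.57 ± 0.07, adjusted p = 8.6e-09). The Sox6 call (0.35 ± 0.10, adjusted p = 0.005) was lost without EV day 11 replicate 1 (adjusted p = 0.062).

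Because constructs differed at day 0, the change since day 0 was also compared with the change of EV in an interaction test. At day 1 it passed for 8 of 9 genes in R219S (3 higher, 5 lower), beside 39.4% of all genes (16.1% higher, 23.3% lower), for 8 in FE255del (4 higher, 4 lower), beside 40.2% (17.4% higher, 22.9% lower), and for 8 in WT (2 higher, 6 lower), beside 44% (20.2% higher, 23.8% lower). At day 11 it passed for 4 in R219S (3 higher, 1 lower), beside 27.1% (12.4% higher, 14.7% lower), for 3 in FE255del (1 higher, 2 lower), beside 20.5% (9.44% higher, 11.1% lower), and for 6 in WT (all lower), beside 21.4% (10.9% higher, 10.5% lower). Sox13 was the only one of the 9 whose change passed on both days in all 3 constructs, at -0.53, -1.25 and -1.25 in R219S, FE255del and WT at day 1 and -0.37, -0.86 and -0.61 at day 11 (log2 scale). The share of all genes that passed in all of these tests was not counted. With Sox2, taking out day 0 turned the FE255del value at day 1 into a call (0.40 ± 0.09, adjusted p = 0.0007). Sox21 in FE255del was lower than EV at day 1, yet its change since day 0 stood above that of EV (0.24 ± 0.06, adjusted p = 0.002). Sox12 in WT was higher than EV at day 1, while its change stood below that of EV (-0.24 ± 0.09, adjusted p = 0.032), a call lost with DESeq2, RLE and total-count scaling, no filter, only the compared groups and without 1 of 5 single libraries (up to 0.253).

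**Figure D5:**
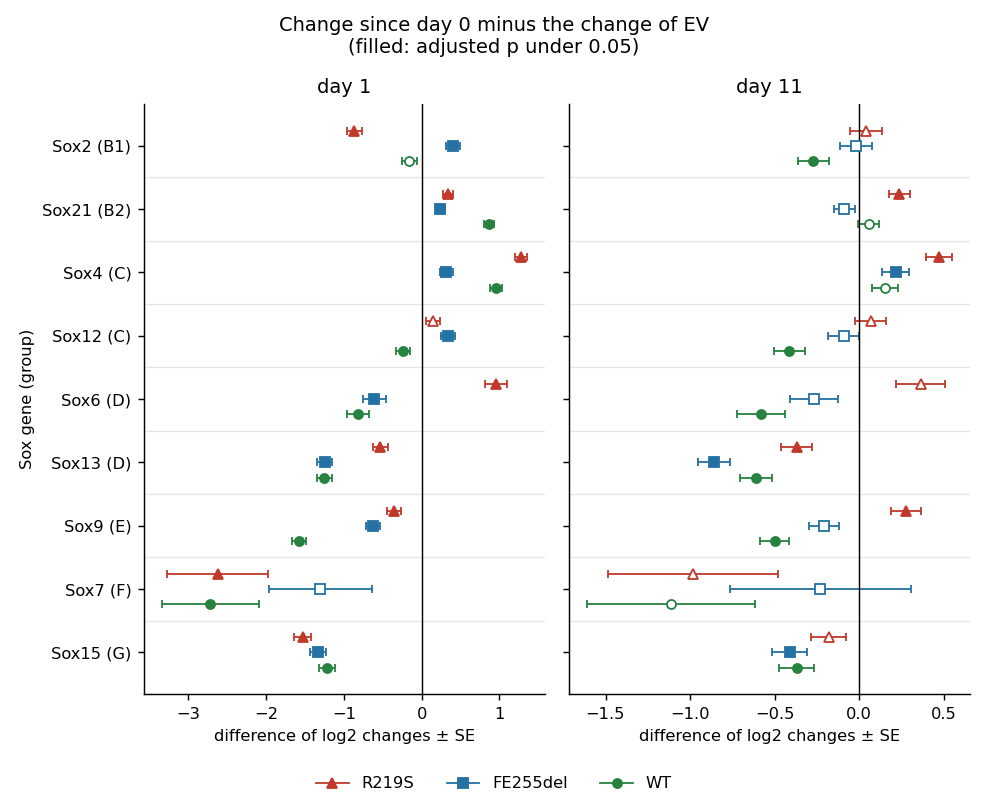
Change of each Sox gene since day 0 minus the change of EV (horizontal axes, difference of log2 changes with its standard error) at days 1 and 11, where filled markers had an adjusted p under 0.05. Sox9 in WT stands at -1.57 at day 1 and -0.50 at day 11.

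Over the 12 group means, Sox9, Sox13, Sox15 and Sox7 followed each other, with Pearson r of 0.906 for Sox9 and Sox13, 0.85 for Sox13 and Sox15, 0.847 for Sox9 and Sox15 and 0.802 to 0.858 for Sox7 with the others. Sox4 ran against Sox15 (r = -0.771), and Sox2, Sox6, Sox12 and Sox21 had no partner among the 9 above 0.7. These are descriptions over 12 points that share constructs, days and one normalization. The genes of at least 2 CPM whose pattern was most like that of Sox13 were Slc2a9 (r = 0.992), Bnipl (0.981) and Mprip (0.979). For Sox15 they were Chmp2a (0.98), Nrarp (0.963) and Pxdc1 (0.962), for Sox9 Pik3c2b (0.967), Ptms (0.962) and Vps37b (0.959), and for Sox7 Pitpnm3 (0.972), Zbtb25 (0.971) and Uba7 (0.971).

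Nearest to Sox4 were Ccdc50 (r = 0.967), Slc2a12 (0.952) and Kdsr (0.951), and nearest to Sox12 were Eri3 (0.937), Tmem267 (0.929) and Bcor (0.926). Sox6 was followed most closely by Ahcyl1 (0.954), Tigd2 (0.951) and Dusp6 (0.95). Sox2 had Eps8l2 (0.954), Dnm1 (0.952) and Ltbp3 (0.945) beside it, and Sox21 had Rab5b (0.93), Kidins220 (0.93) and Zfp874a (0.918).

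Other HMG-box factors, the 4 TCF/LEF genes that carry Wnt signals to DNA, were set beside the Sox genes. At day 1, 2 of 4 were higher and 1 lower in R219S, 1 higher and 1 lower in FE255del, and 2 higher and 2 lower in WT, with medians of 0.25, 0.44 and -0.15 on the log2 scale. Here and for the gene lists below, the shares of all genes called at day 1 were 48.5% in R219S (23.2% higher, 25.3% lower), 53.2% in FE255del (25.5% higher, 27.7% lower) and 60.5% in WT (29.6% higher, 30.9% lower), and the medians of all genes were -0.04, -0.03 and -0.01. Tcf7, which encodes Tcf1, was lower in all 3 (log2 fold changes -1.19, -1.85 and -2.20 in R219S, FE255del and WT, adjusted p = 8.6e-19, 9.5e-24 and 7.7e-26). Lef1 was higher in R219S, at 2.07 CPM on average against 0.313 CPM in EV at day 1 and at 20.8 CPM against 1.34 CPM at day 11 (adjusted p = 2.1e-08 and 3e-13).

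Genes that Sox9 is known to drive in cartilage were scarcely expressed, and 6 of 12 could be tested. At day 1, 2 were higher and 2 lower in R219S, 1 higher and 1 lower in FE255del, and 2 higher and 1 lower in WT. The median log2 fold changes were -0.16, -0.04 and 0.81 in R219S, FE255del and WT with Col11a1, which had no count in EV, ranked highest, and -0.16, -0.04 and 0.49 with it at the bound that 3 counts over the EV group allow. Col9a3, which encodes a chain of type IX collagen, was lower in all 3 (log2 fold changes -1.11, -1.26 and -1.05 in R219S, FE255del and WT, adjusted p = 0.00028, 5.9e-05 and 0.00037). Of 9 factors that work with Sox2 in pluripotent cells, Klf4 and Myc were the 2 that could be tested. Myc was lower at day 1 in all 3 constructs (-0.35, -0.25 and -0.75 in R219S, FE255del and WT, adjusted p = 5.9e-09, 3.1e-06 and 1.5e-17), and Klf4 was higher in R219S and lower in FE255del and WT at day 11 (0.48, -0.86 and -1.08, adjusted p = 7.2e-05, 2.9e-09 and 2.9e-11). On the other day of each, Klf4 was lower in FE255del and WT at day 1 and did not pass in R219S. Myc was lower in R219S and WT at day 11 and higher in FE255del.

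Markers of epithelial cell types were followed across the same groups. Summed over 13 basal genes, the level at day 1 was 6539 to 6748 CPM in R219S, 2505 to 2683 CPM in FE255del, 3736 to 3884 CPM in WT and 10560 to 11300 CPM in EV, and at day 11 it was 15130 to 16820 CPM, 7028 to 7288 CPM, 6675 to 8053 CPM and 12780 to 13800 CPM in the same order. All 13 genes were lower in FE255del and in WT at day 1 (medians -1.64 and -1.59 on the log2 scale), and in R219S 9 were lower and 2 higher (median -0.71). The keratin gene Krt14 was lower in all 3 (log2 fold changes -0.999, -3.23 and -3.20 in R219S, FE255del and WT, adjusted p = 1.1e-14, 1.3e-27 and 1.2e-27). At day 11, 7 of 13 were higher and 1 lower in R219S, and 1 was higher and 11 lower in both FE255del and WT, beside 32.1%, 42.2% and 40.6% of all genes called in R219S, FE255del and WT. Differences were present at day 0, where the basal sum was 10540 to 10770 CPM in EV and 10090 to 10560 CPM in R219S. In FE255del it was 7985 to 8401 CPM and in WT 8088 to 8646 CPM. There 1 gene was higher and 4 lower in R219S, 10 were lower in FE255del and 8 in WT. Of all genes, 20.1%, 20.8% and 22.7% were called at day 0 in the same order. In RNA from whole cultures, fewer cells of a type and less RNA per cell cannot be told apart, and the part of the basal share in the Sox levels was not tested.

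Squamous genes, which mark keratinised epithelium, summed at day 1 to 893 to 925 CPM in R219S, 699 to 731 CPM in FE255del, 304 to 308 CPM in WT and 1934 to 2092 CPM in EV. Of the 15 tested, 5 were higher and 8 lower in R219S, 1 higher and 12 lower in FE255del, and 1 higher and 11 lower in WT. Already at day 0, 3 of these squamous genes were lower in R219S, 11 lower in FE255del, and 1 higher and 9 lower in WT. Beside them, 20.1%, 20.8% and 22.7% of all genes were called. The 13 luminal genes, of which 11 were tested, summed to 6116 to 6274 CPM in R219S, 5975 to 6205 CPM in FE255del, 4921 to 5069 CPM in WT and 5781 to 6173 CPM in EV at day 1. There 2 were higher and 9 lower in R219S, 5 higher and 5 lower in FE255del, and 3 higher and 6 lower in WT. Neuroendocrine genes stayed under 0.8 CPM in sum in every library. Stromal and muscle genes summed at day 1 to 15.9 to 17.6 CPM in R219S, 4.32 to 4.83 CPM in FE255del, 6.26 to 6.73 CPM in WT and 16.8 to 17.3 CPM in EV. At day 11 their sums were 76.1 to 94.4 CPM in R219S, 22.4 to 28.0 CPM in FE255del, 48.0 to 51.2 CPM in WT and 35.2 to 50.4 CPM in EV. Genes of neural crest and Schwann cells summed at day 1 to 119.7 to 124 CPM in R219S, 139 to 142 CPM in FE255del, 149 to 164 CPM in WT and 181 to 185 CPM in EV. The part of these cell types in the Sox levels was not tested.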

How the data were processed

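Polyadenylated RNA of 36 libraries (12 groups of 3) was sequenced. Libraries were made with a stranded kit, per the labels' protocols. The submitters' processing notes list the aligner STAR (2.4.2a), the counter featureCounts (1.4.3) and the build mm10, with no step assigned to any of them; annotation and strand setting are not given in the sources used here. The deposited tables hold expected counts of 45232 genes per library, as judged from their values: 298311 were written with decimals, none farther than 3.0e-09 from a whole number, and all were rounded. Of values from 1 to 20, 69.7% are even, so both reads of a pair seem to be counted, and libraries have less independent evidence than their totals. Of the identifiers, 44585 matched a symbol.

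Genes were kept by filterByExpr in edgeR 4.0.16 (R 4.3.3), scaled by TMM (factors 0.938 to 1.08) and fitted in 1 model of 12 group means over all libraries. Each of 26 comparisons was tested two-sided with the robust quasi-likelihood F test, with Benjamini-Hochberg adjustment over the 18176 genes tested and a threshold of 0.05. The SE of a log2 fold change is the change divided by the square root of F, so it is not a separate estimate of error. The procedure was tested on simulated data. Coordinates and exon lengths are those of GENCODE M21 (GRCm38), where Sox6, Sox7 and Sox13 have later identifier versions than in the files; promoter windows are from RefSeq.

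The members and gene lists were chosen with earlier results of these data known. Named are the 9 genes, other Sox genes that passed the filter, Foxa1, the 3 genes nearest in pattern to each member (mean of at least 2 CPM), and up to 4 genes of smallest p of each list described; Cdh5, Emcn, Ptprc, Hoxb13, Pbsn and Col11a1 were added after their values were seen where the rule did not give them. Alternatives were RLE or total-count scaling, no filter or a stricter one (mean of 2 CPM and at least 1 CPM in 6 libraries), a fit of the compared groups alone, DESeq2 1.42.0, the replicate number as a block, and leaving out each library.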

Additional observations from a re-analysis of the deposited data

Results flagged for a closer look

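The change since day 0 differed from the change of EV, by an interaction test in edgeR with adjusted p under 0.05, in the cases given here. Values are differences of log2 changes, and negative ones mean that the construct rose less or fell further than EV. For Sox2 they were -0.87 in R219S and 0.40 in FE255del at day 1 and -0.27 in WT at day 11. For Sox21 they were 0.34, 0.24 and 0.87 in R219S, FE255del and WT at day 1 and 0.24 in R219S at day 11. Sox4 gave 1.28, 0.32 and 0.96 at day 1 in the same order of constructs, and 0.47 in R219S and 0.21 in FE255del at day 11. Sox12 gave 0.34 in FE255del and -0.24 in WT at day 1 and -0.41 in WT at day 11. Sox6 differed by 0.96, -0.61 and -0.82 in R219S, FE255del and WT at day 1 and by -0.58 in WT at day 11. Sox13 differed by -0.53, -1.25 and -1.25 at day 1 and by -0.37, -0.86 and -0.61 at day 11 in that order. Sox9 differed by -0.35, -0.63 and -1.57 at day 1, and by 0.28 in R219S and -0.50 in WT at day 11. Sox7 differed by -2.62 in R219S and -2.72 in WT at day 1, on few counts. Sox15 differed by -1.53, -1.34 and -1.22 at day 1, and by -0.41 in FE255del and -0.37 in WT at day 11. Of these, 4 did not hold under every setting. Sox12 in WT at day 1 (adjusted p = 0.032) was lost with DESeq2, RLE and total-count scaling, no filter, only the compared groups and without EV day 0 replicate 1, EV day 1 replicate 1 or 2, WT day 0 replicate 1 or WT day 1 replicate 1 (up to 0.253). Sox2 in WT at day 11 (0.033) was lost with only the compared groups and without EV day 0 replicate 1 or 2, EV day 11 replicate 1 or 3, WT day 0 replicate 2 or 3 or WT day 11 replicate 2 (up to 0.143). Sox4 in FE255del at day 11 (0.049) was lost without any 1 EV day 0 library, EV day 11 replicate 2 or 3, FE255del day 0 replicate 1 or 3 or FE255del day 11 replicate 3 (up to 0.229). Sox9 in R219S at day 11 (0.017) was lost without EV day 11 replicate 1 (0.067).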

How the results depend on the processing

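Of 147 calls among 234 values (9 genes in 26 comparisons), 120 held under every alternative that gave a value, 27 were lost under at least 1 and 0 changed sign; 18 values that had not passed did so somewhere. Of the 27, 16 were lost outside the settings that leave out a library. Total-count scaling lost 11 calls, only the compared groups 10, RLE scaling and no filter 4 each, DESeq2 2 and the stricter filter 1, which gave no value for Sox7. Total-count scaling moved the median log2 fold change of all genes by 0.117 in WT against EV at day 1, and by 0.115 in the change of FE255del since day 0 beside EV.

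Over all pairs, no pairing by replicate number was seen: deviations of libraries with the same number had a median r of 0.00355 (198 pairs), and those with different numbers -0.000623 (396 pairs). These pairs pool all constructs and days. Pairing between the days of 1 construct was not looked at apart, so these medians cannot decide on it. With the replicate number as a block, 2 calls were lost and 1 gained, Sox2 in WT against EV at day 11 (log2 fold change -0.15). The lost ones were Sox15 in WT against EV at day 0 (-0.20) and Sox6 in FE255del against WT at day 11 (0.28).

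The number of the 9 genes past the threshold moved by over 1.5 times as follows. In WT against EV at day 0 (4) it was 2 with total-count scaling. In R219S against EV at day 0 (3) it was 5 with total-count scaling, with the stricter filter and with DESeq2. At day 11 only the compared groups gave 3 in R219S against EV (6) and 3 in FE255del against WT (5). Leaving out 1 library at a time gave 1 to 2 in R219S against EV at day 0, 1 to 3 in WT against EV at day 0 (4), 3 to 4 in R219S against WT at day 0 (5), 3 to 6 in R219S against EV at day 11 and 2 to 5 in FE255del against WT at day 11. The low counts of Sox7 limit its precision.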
